A study of Mus musculus with 2 samples.

Results

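The 45 genes described here carry out or supply DNA replication in S phase, and they were chosen by symbol from the 27998 genes in the feature lists of both libraries. All 45 symbols were found. They fell into 6 roles: 11 genes of origin licensing, 6 of helicase activation, 8 of the polymerases and primase, 10 of the sliding clamp, its loader and the lagging strand, 6 of nucleotide supply and uracil removal, and 4 of cyclin E and chromatin assembly.

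The study measured single-cell RNA in hematopoietic stem and progenitor cells (HSPCs) from mouse bone marrow, which were lineage-depleted and sorted for Kit and Sca-1 (LSK cells), and asked how loss of Trmt6 affects their maintenance. The Trmt6 protein works with Trmt61a to put N1-methyladenosine (m1A) on tRNAs. The labels give 1 library of genotype Trmt6 fl/fl, called Trmt6 WT, and 1 library of genotype Trmt6 fl/fl with MX1-cre, called Trmt6 cKO, so the labels give both groups the floxed alleles. The study's text instead describes a Trmt6 +/+ Mx1-Cre control on a C57BL/6 background, and repeated injection of pIpC, an inducer of interferon, in both genotypes, since Mx1-Cre is driven by an interferon-responsive promoter that is not limited to blood cells. The study's text calls the animals young adults, and their number behind each library was not given in the sources used here.

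In late G1, the origin recognition complex, Cdc6 and Cdt1 load the ring of Mcm2 to Mcm7 onto DNA, which licenses an origin, and Cdc45 and the GINS proteins then turn the ring into a working helicase. Polymerase alpha with primase starts each strand, and polymerases delta and epsilon extend it while held by the Pcna clamp, which the Rfc complex loads. E2F factors and cyclin E with its kinase drive the entry into S phase, and in bone marrow most long-term stem cells rest outside the cycle while their progeny divide often.

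E2F sites mark promoters of this pathway, so the licensing promoters that hold one are shown. The 4 forms TTTCCCGC, TTTCGCGC, TTTGCCGC and TTTGGCGC were searched on both strands in the window from 250 bases before to 50 bases after each RefSeq gene start (build GRCm38.p6). Of the 36 genes with a window, 13 held at least 1 match, or 36.1%, against 2.61% of 27025 genes with a window. By role, 7 of 9 licensing genes held a match, 3 of 6 polymerase and primase genes, 1 of 3 helicase genes, 2 of 9 clamp and lagging strand genes, and 0 of 6 nucleotide genes and 0 of 3 genes of the last group. Mcm4, Gmnn, Gins1, Gins2, Gins4, Prim2, Pole, Rfc2 and Ccne2 had no window. In the sequences, read 5′ to 3′ on the strand of the gene, capitals mark 1 match each:
Mcm3, chr1:20820275-20820304, minus strand: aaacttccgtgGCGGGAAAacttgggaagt
Mcm5, chr8:75109345-75109374, plus strand: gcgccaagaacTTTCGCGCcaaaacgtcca
Mcm6, chr1:128359797-128359826, minus strand: tggcgtatgctTTTGGCGCgaaaagtgcgt
Mcm7, chr5:138172030-138172059, minus strand: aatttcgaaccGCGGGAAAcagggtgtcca
Cdc6, chr11:98908002-98908031, plus strand: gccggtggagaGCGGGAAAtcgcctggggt
Cdt1, chr8:122568036-122568064, plus strand: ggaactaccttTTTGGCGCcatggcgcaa
Orc1, chr4:108579416-108579445, plus strand: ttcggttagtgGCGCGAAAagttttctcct
In Mcm5 and Mcm6 the match shown overlaps another on the opposite strand. A match describes the letters of the window and not binding. Among genes with a match, the log2 ratios of cKO over WT given next ran from -0.46 for Mcm7 to 0.54 for Cdt1, with a median of -0.02, and among the 23 genes without one the median was 0.19.

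The libraries differed in depth and in cell makeup. The WT library held 47991455 UMIs (unique molecules) in 8869 barcodes and the cKO library 98323201 UMIs in 9260 barcodes, and after removal of poor cells and likely doublets 8147 and 8479 cells were kept, with medians of 4140 and 10048 UMIs. Each cell was therefore thinned at random to 2000 UMIs, which left 7943 WT and 8374 cKO cells, and 24 barcodes occurred in both libraries. Levels are given as CPM, the thinned UMIs of a gene scaled to the total of the library. Trmt6 itself, the targeted gene, was at 58.2 CPM in WT against 48.7 CPM in cKO, giving a log2 ratio of -0.26 (-0.39 to -0.12), so its transcript was still counted in the cKO library; the 3′ reads used here do not show whether those molecules lack the deleted part. Of the sort markers, Kit was at 75.1 CPM in WT and 23.9 in cKO, and Ly6a, which encodes Sca-1, at 45.4 and 157 CPM. Markers of granulocyte-monocyte progenitors (GMP) summed to 4349 CPM in WT and 931 in cKO over 9 genes, those of lymphoid-primed progenitors to 409 and 118 over 7 genes, and those of neutrophils to 3961 and 1.43 over 8 genes, of which 2 were at 0 in cKO. With 1 library per genotype there is no replicate check and no test across samples. All intervals are exact 95% intervals that cover counting error only, and a difference of genotype cannot be told apart from a difference of animal, sort or library.

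Summed over the 45 genes, the level was 3196 CPM (3168 to 3224) in WT against 3357 CPM (3329 to 3385) in cKO, which makes a log2 ratio of 0.07 (0.05 to 0.09). The median log2 ratio of the 45 genes was 0.16, against -0.03 over 5512 genes that reached 20 CPM in at least 1 library. Of the 45, 29 were higher and 16 lower in cKO. They were 34 and 11 under median-of-ratios factors, 35 and 10 under TMM factors, and 15 and 30 when cells were thinned to 3000 UMIs instead. Thinning to 3000 UMIs also leaves out cells below that, 25.6% of the kept WT and 2.08% of the kept cKO cells. The minimum of 20 CPM was reached by 38 of 45. Orc1, Mcm10, Cdc45, Gins3, Pole, Pole2 and Ccne1 did not. Of the 38, 8 had a log2 ratio above 0.32, here called past the limit, where 18% of all genes at that level did, and 2 had one below -0.32, where 25.5% of all genes did. At 1.5-fold the counts were 0 higher and 0 lower, against 6.42% and 12% of all genes. At this setting the share past the upper limit was close to the background, and the share past the lower limit was below it. At 3000 thinned UMIs 1 of 38 was past the upper limit, against 17.5% of all genes, and 6 past the lower limit, against 22.5%, and with all UMIs 4 of 38 were past the upper limit. For the sum over each role, the log2 ratio was 0.06 for licensing, 0.22 for helicase activation, 0.16 for polymerases and primase, -0.08 for the clamp group, 0.23 for nucleotide supply and 0.13 for cyclin E and chromatin assembly.

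**Figure D1:**
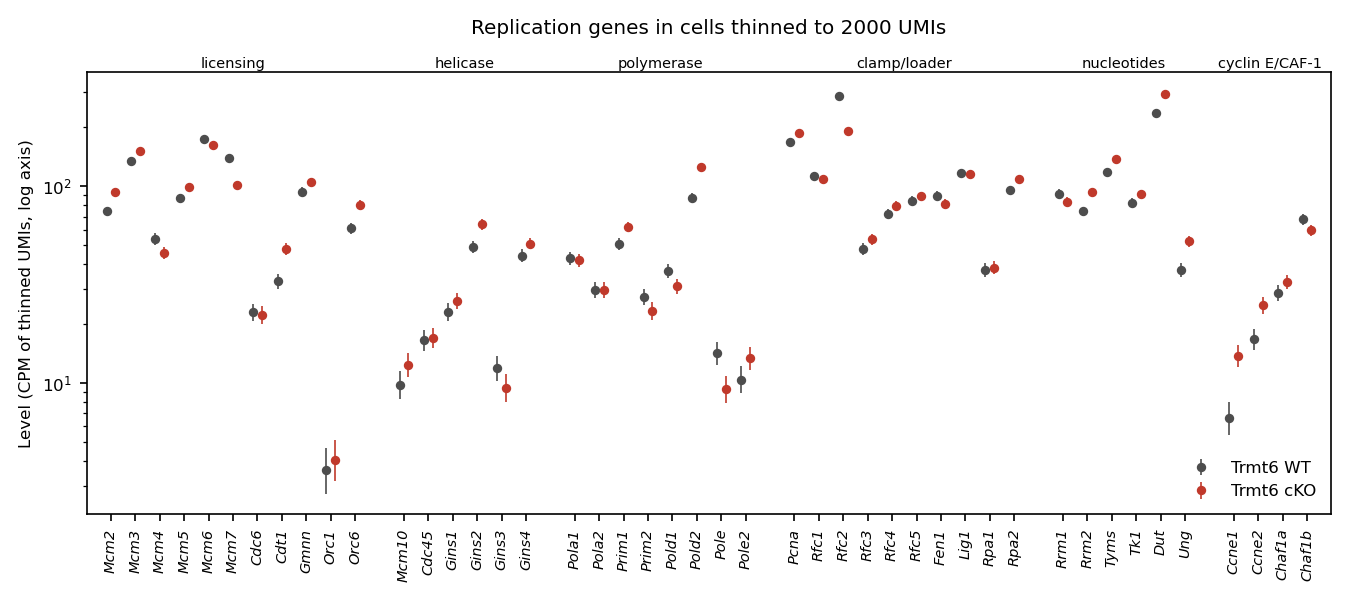
Level of each of the 45 genes (CPM of UMIs in cells thinned to 2000 UMIs, log axis) in the Trmt6 WT library (grey) and the Trmt6 cKO library (red), by role. Bars are exact 95% Poisson intervals; among the genes at 20 CPM or more, the gaps that are widest in each direction are those of Rfc2 and Mcm7, lower in cKO, and of Ccne2, Cdt1 and Pold2, higher in cKO.

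Among the licensing genes, the loading factor Cdt1 (chr8:122568015-122573554, plus strand) was highest in cKO relative to WT, at 32.9 and 47.9 CPM, a log2 ratio of 0.54 (0.38 to 0.71). Orc6, a subunit of the origin recognition complex, was at 61.1 and 80.1 CPM, a log2 ratio of 0.39 (0.27 to 0.51). The 6 subunits of the Mcm ring did not move together, although the ring holds 1 copy of each. Mcm7 (chr5:138164583-138172422, minus strand) was at 139 CPM in WT against 101 CPM in cKO, giving a log2 ratio of -0.46 (-0.55 to -0.37). Mcm2 was at 74.3 and 93.3 CPM, a log2 ratio of 0.33 (0.22 to 0.44). Mcm3 and Mcm5 lay at 0.16 and 0.18 and Mcm6 at -0.09. Mcm4 was at 53.9 and 45.6 CPM, a log2 ratio of -0.24 (-0.38 to -0.10), but its ratio was 0.11 in a second random thinning and -0.07 in the expectation over thinnings, the largest such gap of the 45 genes. Gmnn, which encodes geminin, the inhibitor of Cdt1, lay at 0.16 (0.06 to 0.26). Both Mcm3 and Gmnn turned to -0.10, and Mcm5 lay at 0.01, when only cells of 3000 UMIs or more were used. For Cdc6 and Orc1 the interval spanned 0.

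The helicase activators were mostly low. Gins2 was the highest of them in cKO relative to WT, at 49.2 and 63.9 CPM, a log2 ratio of 0.38 (0.24 to 0.51), but 0.05 (-0.09 to 0.19) in cells of 3000 UMIs or more. Gins4 lay at 0.20, and at 0.08 in those cells. Gins3, another subunit of the same complex, was at 11.9 and 9.43 CPM, a log2 ratio of -0.33 (-0.65 to -0.02). Mcm10 was at 9.76 and 12.3 CPM, a log2 ratio of 0.33 (0.03 to 0.64), which turned to -0.01 in cells of 3000 UMIs or more and to -0.12 at 3000 thinned UMIs. Cdc45 and Gins1 had intervals that spanned 0.

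The polymerase subunits also split. Pold2, the second subunit of polymerase delta, was at 87.3 CPM in WT against 124 CPM in cKO, giving a log2 ratio of 0.51 (0.41 to 0.61). Pold1, the catalytic subunit of the same enzyme, was at 36.9 and 31.0 CPM, a log2 ratio of -0.25 (-0.42 to -0.08). The pair of polymerase epsilon had the same order: Pole2 was at 10.4 and 13.3 CPM, a log2 ratio of 0.36 (0.06 to 0.66), and the catalytic Pole at 14.1 and 9.25 CPM, a log2 ratio of -0.61 (-0.91 to -0.31), which was -0.29 in the second random thinning and -0.20 with doublets kept. For primase the order was the reverse, with the catalytic Prim1 at 0.28 (0.14 to 0.41) and the large subunit Prim2 at 27.3 and 23.2 CPM, a log2 ratio of -0.23 (-0.44 to -0.03). The ratio of Prim2 was -0.77 in cells of 3000 UMIs or more and -0.67 at 3000 thinned UMIs. It was -0.03 without cells with 5 or more UMIs of Mpo, Elane, Ctsg and Prtn3. Both subunits of polymerase alpha, Pola1 and Pola2, had intervals that spanned 0.

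In the clamp group, Rfc2 (chr5:134581366-134601805, plus strand) stood apart. It had 4534 UMIs in WT and 3203 in cKO, or 285 and 191 CPM, a log2 ratio of -0.58 (-0.64 to -0.51). The other four subunits of the clamp loader lay between -0.05 for Rfc1 and 0.16 for Rfc3. Pcna, the clamp, was at 167 and 187 CPM, a log2 ratio of 0.16 (0.09 to 0.24), and its counts are uncertain because the feature list also holds the pseudogene Pcna-ps2, which can take reads from it. Rpa2, which coats single strands, lay at 0.19 (0.10 to 0.29). In cells of 3000 UMIs or more Rpa2 was at 0.01 and Pcna at -0.03, and at 3000 thinned UMIs Rpa2 was at -0.02. Fen1, which trims the flaps of Okazaki fragments, lay at -0.13 (-0.24 to -0.03), and the ligase Lig1 at -0.02.

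Nucleotide supply was the role with the highest log2 ratio of sums. Ung, the glycosylase that removes uracil from DNA, was at 37.5 and 52.4 CPM, a log2 ratio of 0.48 (0.33 to 0.64). Dut, which clears dUTP, was at 235 and 292 CPM, a log2 ratio of 0.31 (0.25 to 0.37). Ribonucleotide reductase split between its subunits: Rrm2 was at 74.3 and 93.5 CPM, a log2 ratio of 0.33 (0.22 to 0.44), and Rrm1 at 91.3 and 83.2 CPM, a log2 ratio of -0.13 (-0.24 to -0.03). Tyms and Tk1, which make thymidylate, lay at 0.22 and 0.15, but at 0.02 and -0.10 in cells of 3000 UMIs or more, where Rrm2 was at 0.09, and Tyms and Tk1 at -0.02 and -0.13 at 3000 thinned UMIs.

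The cyclins E had the largest ratios. Ccne1 (chr7:38097984-38107534, minus strand) was at 6.61 CPM in WT, from 105 UMIs, against 13.7 CPM in cKO, from 229 UMIs, a log2 ratio of 1.05 (0.71 to 1.40). Ccne2 was at 16.7 and 24.8 CPM, a log2 ratio of 0.57 (0.35 to 0.80), the highest of the 38 genes that reached the minimum. Of the subunits of chromatin assembly factor 1, Chaf1a lay at 0.19 (0.00 to 0.37) and Chaf1b at 67.7 and 59.5 CPM, a log2 ratio of -0.19 (-0.31 to -0.06). Over 15 alternatives, of which 2 only moved the minimum level and could not change a sign, 23 of the 45 genes kept their sign in each, 15 of them higher and 8 lower in cKO. Ccne1 ranged there from 0.81 to 1.37, Pold2 from 0.37 to 0.60, Rfc2 from -0.65 to -0.48 and Mcm7 from -0.68 to -0.37.

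Other genes of the pathway, from a list of 55, gave a similar mix. Of the 33 at 20 CPM or more, 7 were past the upper limit and 4 past the lower limit in cKO, against the 18% and 25.5% of all genes given above, and the median log2 ratio of the 55 was 0.08. Among the 33, the highest were the histone chaperone Nasp (62.2 and 107 CPM, 0.79), Shmt1 of folate metabolism (34.1 and 54.8 CPM, 0.68), the chromatin remodeler Hells (99.8 and 152 CPM, 0.60) and E2f4, an E2F of the repressor class (74.8 and 106 CPM, 0.50). The lowest of the 33 were the histone chaperone Asf1b at -0.39, the checkpoint scaffold Topbp1 at -0.38, the dNTP hydrolase Samhd1 at -0.37 and Pold4 of polymerase delta at -0.35.

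The next comparison asked whether the ratios differ between cells with and without mitotic transcripts. Cells were split by the thinned UMIs of 16 mitotic genes such as Ccnb1, Cenpa and Ube2c, none of which is among the 45. At least 1 such UMI was seen in 53.9% (52.8% to 55.0%) of WT and 49.3% (48.2% to 50.4%) of cKO cells, and in 67.0% and 57.4% when cells were thinned to 3000 UMIs. A single UMI was also seen in 42.9% of 70 WT and 33.3% of 48 cKO cells gated by at least 4 of 8 monocyte and dendritic cell genes. Their medians were 4008.5 and 5861.5 UMIs before thinning. It was seen in 77.9% of 68 WT cells gated by 100 or more neutrophil UMIs, of which cKO had 0. Whether these gated cells divide was not measured, so they give no background share. How well 1 UMI marks mitosis was not tested. At least 3 were seen in 27.1% (26.2% to 28.1%) of WT and 23.4% (22.5% to 24.3%) of cKO cells.

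In cells without mitotic UMIs, the 45 genes had a median log2 ratio of 0.19, with 33 higher in cKO. Of the 38 at 20 CPM or more, 9 were past the upper limit, against 19.1% of all genes, and 1 past the lower limit, against 26.2%. In cells with at least 1, the median was 0.09 with 29 higher, and of the 39 at the minimum 7 were past the upper limit, against 18.6%, and 2 lower, against 24.7%. In cells with 3 or more, the median was -0.02 with 22 higher, and of 36 at the minimum 2 were past the upper limit, against 19.2%, and 6 lower, against 24.7%. The median was highest where mitotic UMIs were absent, but with cells thinned to 3000 UMIs that order turned, with medians over the genes at the minimum of -0.10 without and -0.03 with mitotic UMIs. The share of genes past the limits stayed near or below the background in each set.

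Among genes at 20 CPM or more, the ratios that differed most between the sets were those of Ccne2, Fen1 and Tk1. Ccne2 had a log2 ratio of 0.80 (0.47 to 1.13) without and 0.34 (0.02 to 0.66) with mitotic UMIs, Fen1 0.10 (-0.07 to 0.27) and -0.27 (-0.41 to -0.12), and Tk1 0.40 (0.21 to 0.59) and 0.08 (-0.05 to 0.21). In the other direction, Pola2 lay at -0.09 and 0.09 and Rfc4 at 0.07 and 0.23. Intervals did not overlap between the sets for Fen1, alone of these 5 genes, nor for Mcm7, given next. The share of all genes without such overlap was not computed. Rfc2 was lower in cKO in both, at -0.64 (-0.73 to -0.54) and -0.52 (-0.62 to -0.43), as was Mcm7 at -0.32 (-0.45 to -0.18) and -0.59 (-0.72 to -0.46). Ccne1 was higher in both, with log2 ratios of 1.45 (from 5.74 and 15.8 CPM) and 0.64 (0.17 to 1.13), and Pold2 lay at 0.55 and 0.48. With 1 library per genotype, whether the ratios differ between the sets was not tested.

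The summed level followed the same course in both libraries. In WT it was 3022 CPM in cells with 0 mitotic UMIs, 3514 with 1, 4430 with 2 and 2921 with 3 or more. In cKO it was 3253, 4021, 4345 and 2739 CPM in the same order. The level was thus highest at 2 mitotic UMIs and lowest at 3 or more in both, with no overlap of the counting intervals between those sets.

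**Figure D2:**
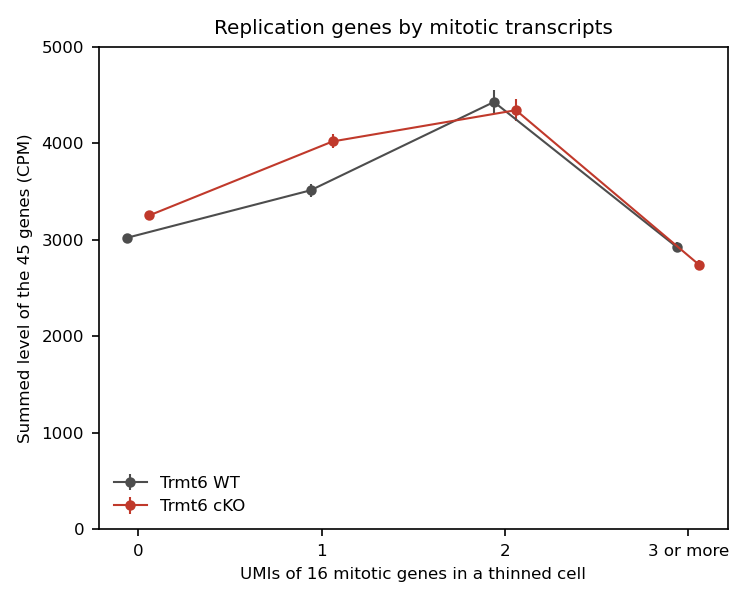
Summed level of the 45 genes (CPM) against the number of UMIs of 16 mitotic genes in a thinned cell, for WT (grey) and cKO (red). Bars are exact 95% Poisson intervals, mostly smaller than the points. Both lines peak at 2 mitotic UMIs, at 4430 and 4345 CPM, and are lowest at 3 or more.

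Within each library, the genes were ordered alike between cells with 3 or more and cells with 0 mitotic UMIs: 38 of 45 had the same sign in WT and cKO, 16 higher and 22 lower in the mitotic cells, and Pearson's r over the 45 genes was 0.94. These are 2 separate libraries, each compared within itself, and the genes are not independent replicates. The r includes Ung, whose ratios, given below, lay far below 0 in both libraries. The share of all genes with the same sign and the r over all genes were not computed. In WT, 5 of the 38 genes at the minimum were past 1.5-fold higher and 6 past 1.5-fold lower in the mitotic cells, against 6.57% and 7.13% of all genes. In cKO, 1 of 38 was higher and 11 lower, against 5.1% and 3.23%.

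Among the genes lower in mitotic cells, Ung was at 52.7 CPM without and 4.17 CPM with 3 or more mitotic UMIs in WT, and at 73.4 and 6.12 CPM in cKO, log2 ratios of -3.62 and -3.56. Across both libraries 9 genes were past 1.5-fold lower: Ung, Orc1, Chaf1b, Mcm2, Ccne1, Mcm6, Mcm4, Ccne2 and Cdc6, of which Orc1 and Ccne1 were below 20 CPM in both libraries and Ccne2 in WT. The share of all genes past it in both libraries was not computed. Mcm6 was at 195 and 105 CPM in WT and at 186 and 86.7 CPM in cKO.

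Of the genes higher in mitotic cells of both libraries, Rrm1 was at 64.8 and 131 CPM in WT and 65.5 and 99.2 CPM in cKO, log2 ratios of 1.02 and 0.60. Tk1 was at 51.4 and 110 CPM in WT and 67.9 and 96.9 CPM in cKO, log2 ratios of 1.09 and 0.51. Mcm10 had ratios of 1.17 and 0.54 from levels under 20 CPM, and Cdc45 of 0.81 and 0.56. The sign of Fen1 differed between the libraries, at 0.62 and -0.13. Each of these ratios was smaller in cKO than in WT.

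Per cell, the 45 genes gave a mean of 6.39 UMIs (SD over cells 5.09) in WT and 6.71 (SD 4.64) in cKO. The 10th, 50th and 90th percentiles were 1, 5 and 14 UMIs in WT and 2, 6 and 13 in cKO. No UMI was seen in 3.45% of WT and 3.34% of cKO cells, and 20 or more in 2.08% and 0.908%. The WT cells were thus spread a little wider at both ends.

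**Figure D3:**
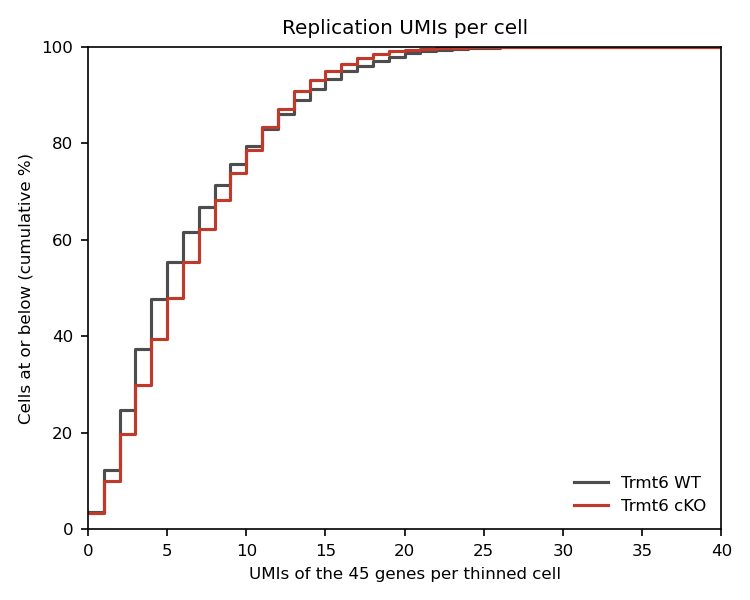
Cumulative share of cells (%) at or below a given number of UMIs of the 45 genes per cell thinned to 2000 UMIs, in WT (grey) and cKO (red). The lines cross: WT has more cells at 5 UMIs or fewer and also more at 20 or more (2.08% against 0.908%).

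The level of the 45 genes moved with the size of the cell, measured as its UMIs before thinning. In quintiles of the WT cells from small to large, the summed level was 1669, 2159, 3444, 4360 and 4350 CPM. In quintiles of the cKO cells it was 1956, 3130, 3841, 3940 and 3919 CPM. From the smallest to the largest quintile, 43 of 45 genes were higher in WT and 45 of 45 in cKO, with median log2 ratios of 1.60 and 1.10. Of the 39 genes at the minimum, 36 in WT and 35 in cKO were past the upper limit, against 24% and 23.6% of all genes. Tk1 had the largest ratio in WT, 3.07, and Mcm10 in cKO, 2.50. All levels are per 2000 UMIs in every quintile, and the part of depth in them was not tested. Cell makeup moved with the same rank: from the smallest to the largest quintile, cells with 3 or more mitotic UMIs went from 5.98% to 52.1% in WT and from 10.2% to 37.8% in cKO, and HSC-gated cells, described further on, from 46.5% to 8.31% and from 53.3% to 17.6%. The part of this in the levels was not tested.

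**Figure D4:**
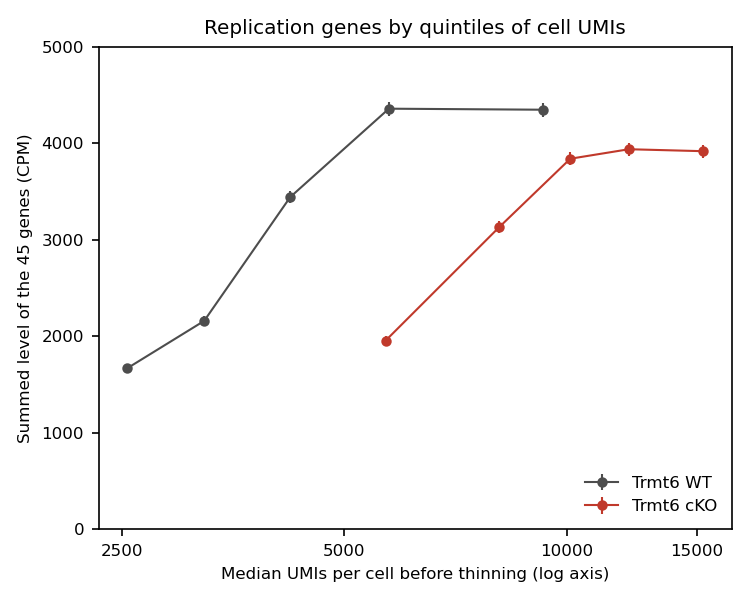
Summed level of the 45 genes (CPM of thinned UMIs) in quintiles of the cells by their UMIs before thinning, plotted at the median of each quintile (log axis), for WT (grey) and cKO (red). Bars are exact 95% Poisson intervals. The level climbs over the lower quintiles and is flat over the upper ones, at 4350 to 4360 CPM in WT and 3841 to 3940 CPM in cKO.

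The ratio of cKO over WT depended on this rank. The median log2 ratio of the 45 genes was 0.39 in the smallest quintile, then 0.66, 0.27, -0.14 and -0.10, while the median of all genes was between -0.06 and just under 0. In the next to smallest quintile, 31 of 37 genes at the minimum were past the upper limit in cKO, against 22.6% of all genes, and in the largest quintile 13 of 39 were past the lower limit, against 24.8%. Rfc2 was lower in cKO in every quintile, from -0.72 to -0.46, and Pold2 higher in every quintile, from 0.40 to 0.68. Ccne1 was higher in every quintile, from 0.14 to 2.66, and Mcm7 was lower in all but the next to smallest quintile, where it was at 0.26.

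With cells under 3000 UMIs left out, which removed 25.6% of the kept WT and 2.08% of the kept cKO cells, the median log2 ratio over the genes at the minimum was -0.06. Of the 45 genes, 19 were then higher and 26 lower in cKO, and of the 38 at the minimum 1 was past the upper limit, against 17.7% of all genes, and 5 past the lower limit, against 22.7%. The summed log2 ratio was -0.10. The interval lay above 0 for Mcm2, Cdt1, Orc6, Prim1, Pold2, Dut, Ung, Ccne1 and Ccne2, which are 9 of the 24 genes whose interval lay above 0 in all cells, and below 0 for 16 of the 45. The share of all genes with an interval wholly above or below 0 was not computed, here or for the gated cells below, so these counts have no background. Mcm3, Gmnn, Mcm10, Pcna, Rfc4, Tk1 and Chaf1a, also among the 24, had ratios below 0. Among the named genes, Cdt1 was then at 0.22 (0.05 to 0.39), Ccne1 at 1.04 (0.68 to 1.43), Pold2 at 0.37 (0.27 to 0.47), Mcm7 at -0.68 (-0.78 to -0.58) and Rfc2 at -0.63 (-0.70 to -0.56). Prim2 was lower than these, at -0.77. Depth and size of the cells cannot be told apart from genotype here, since each genotype is 1 library.

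The last comparison asked how the genes stood in stem cells, whose cycling the study examined. Cells in which at least 2 of 10 hematopoietic stem cell (HSC) genes were detected numbered 2134 in WT (26.9%) and 2995 in cKO (35.8%). Detected HSC genes do not make a cell a stem cell: in the gated cells the HSC genes summed to 2391 CPM in WT and 3258 in cKO and the GMP genes to 1956 and 533 CPM, so the gate held unlike mixtures in the 2 libraries, and the part of this in the results was not tested. Ifitm1, at 1027 and 1611 CPM in all cells, made up most of the summed HSC genes. A gate without it, chosen after seeing the data, held 660 WT (8.31%) and 983 cKO (11.7%) cells, in which the median log2 ratio over the genes at the minimum was 0.49.

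Replication genes were lower in gated than in other cells of both libraries. In WT, 43 of 45 were lower, and 32 of 37 at the minimum were past the lower limit, against 9.23% of all genes. In cKO, 43 of 45 were lower too, but 7 of 38 were past the lower limit, against 5.14% of all genes. The median log2 ratio of gated over other cells was -0.56 in WT and -0.21 in cKO. Ccne1 was at -1.90 in WT (-3.14 to -0.99) and -0.13 in cKO (-0.55 to 0.27). Rrm2 was at -1.32 and -0.71. Gated cells were also smaller, with medians of 3271.5 against 4744 UMIs before thinning in WT and 8678 against 10908 in cKO, and at least 3 mitotic UMIs were seen in 18.2% of gated against 30.4% of other WT cells and in 21.5% against 24.5% in cKO. The part of size and of mitotic cells in these ratios was not tested.

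Between the libraries, the 45 genes in gated cells summed to 2452 CPM (2405 to 2499) in WT against 3019 CPM (2975 to 3063) in cKO, and the log2 ratio was 0.30 (0.27 to 0.34). The median of the 45 log2 ratios was 0.43, with 37 higher and 8 lower in cKO, against a median of -0.05 over all genes. Of the 37 at the minimum, 24 were past the upper limit, against 18.8% of all genes, and 2 past the lower limit, against 28.4%. All 6 nucleotide genes were among the higher, from 0.41 for Dut to 0.90 (0.63 to 1.19) for Rrm2. Of the licensing genes, Cdt1 was at 24.6 and 43.9 CPM, a log2 ratio of 0.83 (0.50 to 1.18), and Mcm5 at 0.69 (0.47 to 0.92). Ccne1 was at 2.11 CPM in WT, from 9 UMIs, against 12.9 CPM in cKO, from 77 UMIs, a log2 ratio of 2.54 (1.61 to 3.79). Ccne2 was at 9.14 and 24.7 CPM, a log2 ratio of 1.42 (0.92 to 1.98). Rfc2 stayed lower in cKO at -0.54 (-0.66 to -0.41), as did Mcm7 at -0.39 (-0.58 to -0.21) and Chaf1b at -0.29 (-0.52 to -0.07). At least 3 mitotic UMIs were seen in 18.2% (16.6% to 19.9%) of gated WT and 21.5% (20.1% to 23.1%) of gated cKO cells, and at least 1 in 45.5% of both.

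Most of this was not seen once cells under 3000 UMIs were left out, a cut that fell mainly on WT. Without the cut the gate held 2134 WT and 2995 cKO cells, with sums of 2452 and 3019 CPM. In the 1266 WT and 3006 cKO gated cells of 3000 UMIs or more, gated in a thinning of their own, the sums were 3133 and 3053 CPM and the median log2 ratio over the genes at the minimum was 0.03. Of 38 genes at the minimum, 4 were past the upper limit, against 17.2% of all genes, and 5 past the lower limit, against 25.9%. Intervals lay above 0 for Ccne1 at 2.06 (0.97 to 3.67), Ccne2 at 0.74 (0.20 to 1.34), Rrm2 at 0.58 (0.29 to 0.88), Pold2 at 0.43 (0.20 to 0.66), Prim1 at 0.31 (0.01 to 0.63) and Mcm2 at 0.29 (0.04 to 0.55). Intervals lay below 0 for Rfc2 at -0.76 (-0.89 to -0.62), Mcm7 at -0.65 (-0.85 to -0.44), Chaf1b at -0.44 (-0.70 to -0.18), Fen1 at -0.37 (-0.59 to -0.14) and Mcm6 at -0.26 (-0.43 to -0.10), and for Pole at a level under 20 CPM, of which Rfc2, Mcm7 and Chaf1b were also below 0 among all gated cells. Ccne1 was at 2.37 CPM in these WT cells and 10.6 CPM in these cKO cells.

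**Figure D5:**
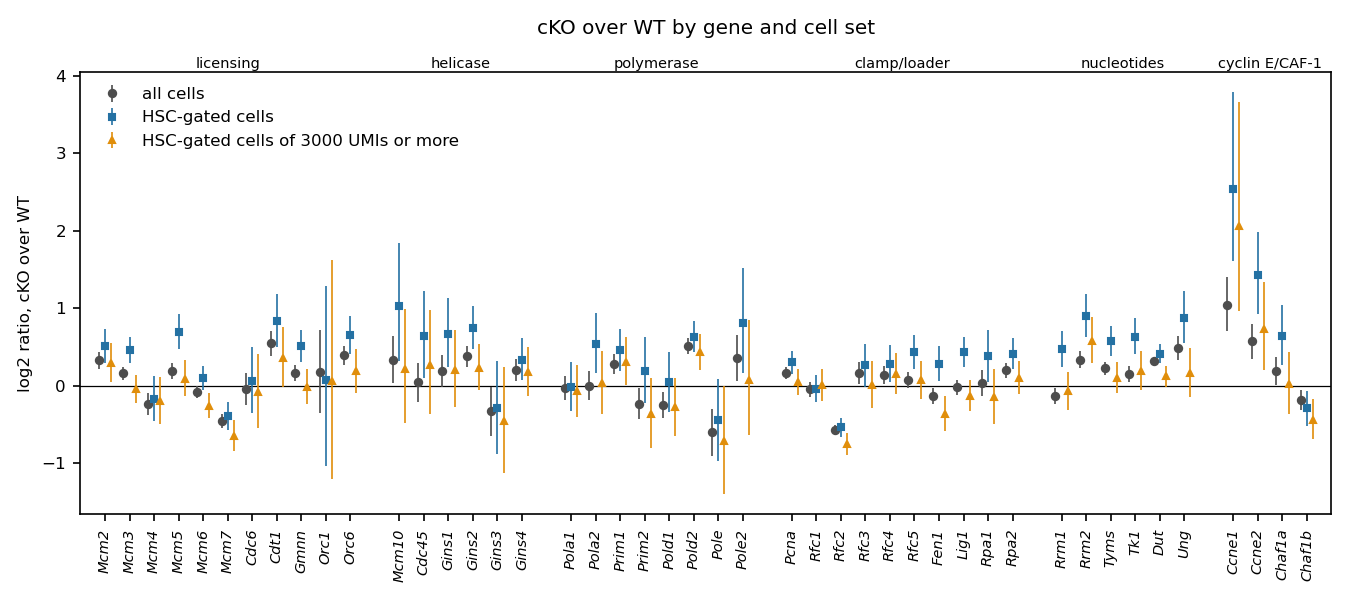
Log2 ratio of cKO over WT for each of the 45 genes in all thinned cells (grey circles), in HSC-gated cells (blue squares) and in HSC-gated cells of 3000 UMIs or more (orange triangles), by role. Bars are exact 95% intervals of counting error. The blue points lie mostly above 0 (37 of 45) and the orange ones near it, while Ccne1 and Ccne2 stay above 0 and Rfc2 and Mcm7 below 0 in each set.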

How the data were processed

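Single-cell RNA was measured in 1 Trmt6 WT and 1 Trmt6 cKO library of sorted LSK cells. The values deposited by the authors are UMI counts for each gene in each barcode, made with Cell Ranger 6.0.0 on GRCm38. The authors' cell limits were kept (over 200 genes; under 4000 genes and 10% mitochondrial UMIs in WT, under 4500 genes and 5% in cKO; under 5% hemoglobin UMIs), and the highest doublet scores were removed, 7.09% of WT and 7.41% of cKO barcodes. Cells were thinned to 2000 UMIs, leaving out 204 WT and 105 cKO cells below that. Log2 ratios carry 0.5 prior counts, and exact Poisson, conditional binomial and Clopper-Pearson intervals came from scipy 1.17.1. Gene positions are from GENCODE M21 (GRCm38), promoter sequences from RefSeq. The genes, the lists and the gates were chosen with earlier results of these data known. Named genes are the 5 highest and 5 lowest at 20 CPM or more, the extremes of each role, the 3 largest differences each way in the mitotic split, and 4 other replication genes each way; other genes were named after their values were seen. Scripts were tested on simulated data. Counts of 3′ UMIs are not per length, so levels were compared within a gene. Size quintiles were added after the data were seen.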

Additional observations from a re-analysis of the deposited data

How the results depend on the processing

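No value here has a replicate, so alternatives were compared by size only. No paired analysis was possible because each genotype has 1 library and no test was made. The settings in cells of 3000 UMIs or more, without GMP-high cells and with a gate without Ifitm1 were chosen after seeing the data. Medians here are over genes at the minimum. The median log2 ratio, 0.16, was -0.0728 at 3000 thinned UMIs, -0.0557 in cells of 3000 UMIs or more, 0.245 under median-of-ratios factors, 0.0187 with all UMIs summed, 0.099 under the same limits in both libraries, 0.25 under TMM factors or without mitochondrial and ribosomal genes (the factors shift every gene, the median of all genes to 0.05 and 0.06) and 0.23 without cells with 5 or more UMIs of Mpo, Elane, Ctsg and Prtn3, which left out 39.0% of WT and 4.24% of cKO cells. The 8 genes past the upper limit were 1 at 3000 thinned UMIs, 1 in cells of 3000 UMIs or more and 4 with all UMIs. The 2 past the lower limit were 6 at 3000 thinned UMIs, against 22.5% of all genes, and 5 in cells of 3000 UMIs or more, against 22.7%. They were 3 with all UMIs summed, against 23.7%, and 4 of 45 with no minimum, against 21.5%. The log2 ratio of the sums, 0.07, was -0.11 at 3000 thinned UMIs and -0.10 in cells of 3000 UMIs or more. With all UMIs it was -0.0192 summed over cells and 0.0848 with each cell scaled before averaging. It was 0.0939 with doublets kept, 0.16 under the other 3 scalings and 0.13 without the GMP-high cells. Mcm10, 0.33, turned to -0.12 and -0.0119 at 3000 thinned UMIs and in cells of 3000 UMIs or more. Mcm3, Gmnn, Orc1, Pcna, Rfc4, Rfc5, Rpa1, Tk1 and Chaf1a also turned below 0 in both, and Mcm5, Cdc45, Rpa2 and Tyms at 3000 thinned UMIs. These 2 settings are not separate checks, since each leaves out cells under 3000 UMIs and uses the same 6058 WT and 8303 cKO cells. The split gave 0.17 without and 0.09 with mitotic UMIs, and -0.10 and -0.0337 at 3000 thinned UMIs, 0.30 without under median-of-ratios and -0.0318 with them at 3 or more UMIs. The share of cells with mitotic UMIs, lower in cKO by 4.60 points, was -9.59 at 3000. In HSC-gated cells 0.43 became 0.61 with 3 HSC genes required and 0.0345 in cells of 3000 UMIs or more. The cause of these moves was not tested.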

Other observations

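Replication-dependent histone transcripts, which peak in S phase, had another course than the replication genes. Their mRNAs mostly lack a poly(A) tail, so a poly(dT)-primed library counts only part of them. The 11 histone genes of the list summed to 2404 CPM in WT and 831 CPM in cKO, and 11 of 11 were lower in cKO, 9 of 9 at the minimum past the lower limit of -0.32, against 25.5% of all genes. Hist1h2ap was at 1397 and 335 CPM, a log2 ratio of -2.06 (-2.10 to -2.02). Slbp, which binds and processes these transcripts, was at 157 and 166 CPM (0.08), and the histone chaperone Nasp was among the highest of the pathway in cKO at 0.79. At least 2 histone UMIs were seen in 58.2% of WT and 33.2% of cKO cells, so a gate on them admits unlike cells from each library. In cells with at least 2 histone and 0 mitotic UMIs (1585 WT and 554 cKO cells), 30 of 40 replication genes at the minimum were past the upper limit in cKO, against 26.2% of all genes. In all cells with at least 2 histone UMIs the count was 16 of 40, against 20.8%, and in cells with 0 histone UMIs it was 11 of 38, against 19.5%.

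The mitotic genes were lower in the cKO library as a whole, with a median log2 ratio of -0.41 over 16 genes. Of the 15 at the minimum, 9 were past the lower limit, against 25.5% of all genes, led by Kif23 at -0.97, Nusap1 at -0.92 and Cenpf at -0.78. Ube2c (0.05) and Cdc20 (0.09), which act with the anaphase-promoting complex, lay near 0. Of 44 other replication genes with a promoter window, 17 held an E2F match, against 2.61% of all genes with a window, and 0 of 13 mitotic genes did, which at that share is the background.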
